A study of Rattus norvegicus with 4 samples.

Results

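The genes described here encode the collagen chains and the enzymes that act on them, in rat embryonic stem cells (ESCs) with and without *Thop1*, which encodes thimet oligopeptidase, an intracellular peptidase. They were taken by name from the deposited table: every gene symbol of the form Col-number-a-number, with *Lox*, the *Loxl* genes, the *Plod* genes and the *P4ha* genes. This gave 53 of the 34773 genes of the table, made up of 42 collagen chains and 11 enzymes. Of the chains, 10 are fibrillar, 6 are type IV chains of the basement membrane and 26 belong to other collagens. The enzymes are 5 lysyl oxidases, 3 lysyl hydroxylases and 3 prolyl 4-hydroxylase alpha subunits.

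The control (WT) was DA-5-3, a rat ESC line carrying a *Rex1*-GFP reporter, with 1 library, and it was compared with 3 *Thop1*-KO subclones of that reporter line (#1, #2 and #3), made with Cas9, selected with puromycin and sequenced as 1 library each. Each subclone is 1 clone. All rat ESCs of the study grew on feeder cells, per its methods, in 2i/LIF medium, which holds inhibitors of MEK and GSK3. The study names DA-5-3 as diploid, whereas the text deposited with the data calls the cells haploid. The counts on genes summed to between 15405499 and 17936544 per library. With 1 WT library, the spread between replicates is that among the 3 subclones alone, so a difference of genotype and a peculiarity of the WT culture or library cannot be told apart. *Thop1* mRNA was 370 CPM, counts scaled to the same library size, in WT and 110, 92.5 and 149 CPM in #1, #2 and #3, a log2 fold change of -1.66 (SE 0.29, adjusted p = 0.0187).

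Collagen chains are wound around each other into a helix of 3 chains in the endoplasmic reticulum, where prolyl 4-hydroxylases and lysyl hydroxylases modify them. Fibrillar collagens are secreted as precursors, trimmed and assembled into fibrils, whereas type IV collagen forms the sheet-like network of basement membranes. Lysyl oxidases then cross-link the secreted chains outside the cell. In the early embryo, type IV collagen is known from the basement membranes laid down by endoderm, and the fibrillar collagens from mesenchymal cells such as fibroblasts.

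Of the 53 genes, 34 had enough counts to be tested, and 7 of them rose in the *Thop1*-KO subclones by the quasi-likelihood test of edgeR, with p-values adjusted after Benjamini and Hochberg across the 15028 genes tested. They were the fibrillar chains *Col5a1* and *Col5a2*, the basement membrane chain *Col4a5*, the short-chain collagen *Col8a2*, the lysyl oxidases *Lox* and *Loxl2*, and *P4ha1*, a catalytic subunit of prolyl 4-hydroxylase. These 7 are 20.6% of the tested members, beside 8.62% of all genes tested that rose. None fell, beside 5.17% of all genes, and 13.8% of all genes were called in either direction. Without adjustment, 13 of the 34 had p under 0.05, beside 34.0% of all genes, 12 of them higher in the subclones and 1, *Col9a2*, lower. DESeq2 called 10 of 31 higher and 0 lower, beside 14.2% and 7.29% of all genes, and limma called 1 of 34 higher and 0 lower on log2(FPKM + 1), beside 6.85% of all genes higher, and 3 of 34 higher and 0 lower on log2(FPKM + 0.1), beside 8.46%.

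The test filter passes a gene on about 10 counts in any 1 library, so genes near 0 in WT passed through the subclones. Of the 34, 12 had fewer than 10 counts in WT. From the 7 genes that rose, these include 3 with 0 to 3 WT counts (*Lox*, *Col4a5* and *Col8a2*) and *Col5a2* with 6. Where at least 10 counts were required in every library, 20 members were tested and 3 rose, *Col5a1*, *Loxl2* and *P4ha1*, beside 8.85% of all genes at this filter. The number of calls changed with the subclones used. Without #3, only *Col5a2* of 34 tested members rose (adjusted p = 0.0313), while 12 of 33 rose without #1 and 14 of 34 without #2. Over all genes, 354 of 14761, 1312 of 14824 and 3096 of 14704 rose without #3, #1 and #2. The log2 fold changes without #3 were close to those with it, at 1.65 against 1.63 for *Col5a1*, 5.72 against 5.46 for *Col5a2*, 3.81 against 3.89 for *Loxl2* and 1.97 against 1.96 for *P4ha1*. In either direction, 457, 2022 and 5572 genes were called without #3, #1 and #2.

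The promoters of the genes that rose are shown as the place where a shared sequence would be looked for. RefSeq sequences of the GRCr8 assembly were matched by symbol for 42 of the 53 members and for 5 of the 7 that rose, leaving *Lox* and *Loxl2* without one. Each line gives the 250 bases before the annotated start, 5′ to 3′ on the strand of the gene, and capitals mark matches on either strand to the 5 motifs spelled out after them. *Col4a5* lies at chrX:109907109-109907358 (+), *Col5a1* at chr3:31606630-31606879 (+), *Col5a2* at chr9:55090152-55090401 (-), *Col8a2* at chr5:143870519-143870768 (+) and *P4ha1* at chr20:27844796-27845045 (+).
Col4a5: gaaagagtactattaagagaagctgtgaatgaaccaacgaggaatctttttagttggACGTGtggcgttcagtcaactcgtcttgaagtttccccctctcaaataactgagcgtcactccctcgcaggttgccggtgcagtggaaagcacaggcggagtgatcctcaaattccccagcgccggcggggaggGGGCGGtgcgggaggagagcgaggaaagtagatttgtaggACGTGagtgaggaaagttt
Col5a1: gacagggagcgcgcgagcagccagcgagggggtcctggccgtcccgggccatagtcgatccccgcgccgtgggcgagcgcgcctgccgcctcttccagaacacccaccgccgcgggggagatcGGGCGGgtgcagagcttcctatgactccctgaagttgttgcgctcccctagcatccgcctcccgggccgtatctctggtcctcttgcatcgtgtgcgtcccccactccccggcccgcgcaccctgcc
Col5a2: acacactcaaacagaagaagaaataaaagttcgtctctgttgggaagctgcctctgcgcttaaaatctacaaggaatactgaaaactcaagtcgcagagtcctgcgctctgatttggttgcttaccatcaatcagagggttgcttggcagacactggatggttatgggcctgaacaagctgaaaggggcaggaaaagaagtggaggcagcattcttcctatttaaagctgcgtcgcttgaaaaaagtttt
Col8a2: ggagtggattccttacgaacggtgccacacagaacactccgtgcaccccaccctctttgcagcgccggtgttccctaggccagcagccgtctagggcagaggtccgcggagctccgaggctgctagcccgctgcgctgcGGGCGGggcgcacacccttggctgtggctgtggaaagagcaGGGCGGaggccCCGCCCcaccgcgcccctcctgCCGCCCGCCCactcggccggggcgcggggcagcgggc
P4ha1: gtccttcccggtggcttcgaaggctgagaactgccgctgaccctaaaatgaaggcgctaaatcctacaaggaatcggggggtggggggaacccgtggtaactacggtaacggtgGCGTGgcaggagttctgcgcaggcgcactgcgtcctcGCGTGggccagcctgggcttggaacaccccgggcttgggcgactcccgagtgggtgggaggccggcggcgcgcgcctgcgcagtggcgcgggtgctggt

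These promoters differed in the letters searched. *Col8a2* held 5 matches to the letters GGGCGG, the core of an Sp1 site, of which some overlap, *Col4a5* and *Col5a1* held 1 each, and *Col5a2* and *P4ha1* held 0. The *P4ha1* window held 2 matches to GCGTG and the *Col4a5* window 2 to ACGTG, both cores of the hypoxia response element, while none of the 5 held CCAAT or TATAAA. The letters GGGCGG occurred in 18 of the 27 tested members with a promoter and in 32.4% of all 27457 promoters of this length. GCGTG occurred in 14 of the 27 and in 27.2% of all, CCAAT in 7 and 34.3%, ACGTG in 4 and 16.9%, and TATAAA in 2 and 13.1%. These are matches of letters, chosen with the sequences known, and are not sites. The 27 members passed the count filter, whereas the 27457 promoters are of all genes, tested or not. The share among promoters of tested genes was not taken, so no enrichment can be read from these figures.

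The fibrillar chains were the most abundant, and 2 of the 8 tested rose, beside 8.62% of all genes. Levels between genes are compared in FPKM, counts per gene length and depth. *Col1a1*, the main chain of type I collagen, was at 32.2 FPKM in WT and 51.8, 94.1 and 62.5 FPKM in #1, #2 and #3. This was the highest member in every library. Its CPM was 190 in WT and 411 ± 130 (SD, n = 3) in the subclones, with WT below all 3, but the log2 fold change of 1.11 (SE 0.37) did not pass (adjusted p = 0.0921). DESeq2 called it (adjusted p = 0.0235), and so did the fits without #1 (0.0332) and without #2 (0.00864).

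*Col5a1* and *Col5a2* encode the chains of type V collagen, which sits inside type I fibrils and limits their width. *Col5a1* (chr3:6430201-6578882 in the deposited annotation, whose build is not given in the sources used here) had 737 counts in WT and 1860, 3530 and 2669 in the subclones. It was 49.6 CPM against 153 ± 44.6 CPM (SD, n = 3), a log2 fold change of 1.63 (SE 0.39, adjusted p = 0.0399). *Col5a2* (chr9:52092511-52238564) had 6 counts in WT and 148, 609 and 197 in the subclones, a log2 fold change of 5.46 (SE 1.18, adjusted p = 0.0315). In both genes WT lay below every subclone and #2 was the highest. The FPKM ratio of *Col5a1* to *Col5a2* was 84.6 in WT and 8.66, 3.99 and 9.33 in the subclones, so the 2 transcripts were less unequal in each subclone, on 6 WT counts of *Col5a2*. *Col5a1* lost its call without #3 (adjusted p = 0.102, log2 fold change 1.65) and with a gene-length correction (adjusted p = 0.0574).

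*Col3a1*, the type III chain found with type I in soft tissues, lies 33293 bases from *Col5a2* with 0 genes between them. It had 95 counts in WT and 271, 1414 and 663 in the subclones, and its log2 fold change of 2.79 (SE 0.92) did not pass (adjusted p = 0.0863). The subclones themselves differed more than 4-fold, from 16.2 to 80.0 CPM, and again #2 was the highest. Of the remaining tested fibrillar chains, the log2 fold changes were 2.27 for *Col2a1* and 2.13 for *Col11a1*, both cartilage chains at or below 6.11 CPM, 0.97 for *Col5a3* and -1.55 for *Col11a2*, and none passed. *Col24a1* was at 0 in all libraries and *Col27a1* at 10 counts or fewer, and both were not tested.

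The partner chain of *Col1a1* is listed under another symbol and so falls outside the name rule. The row NEWGENE_621351 (ENSRNOG00000011292, chr4:31534225-31569151), described as type I alpha 2, had 116 counts in WT and 298, 817 and 508 in the subclones, a log2 fold change of 1.98 (SE 0.59, adjusted p = 0.0702). In FPKM, *Col1a1* exceeded it 18.7-fold in WT and 13.1-, 9.23- and 10.2-fold in the subclones, although the type I molecule usually holds both chains. Another row of the same symbol and description (ENSRNOG00000052925, chr4:29529854-29564768) was at 0 in all libraries. Whether having more than 1 row lowered the counts of this chain was not tested, so the ratios to *Col1a1* may be too high.

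**Figure D1:**
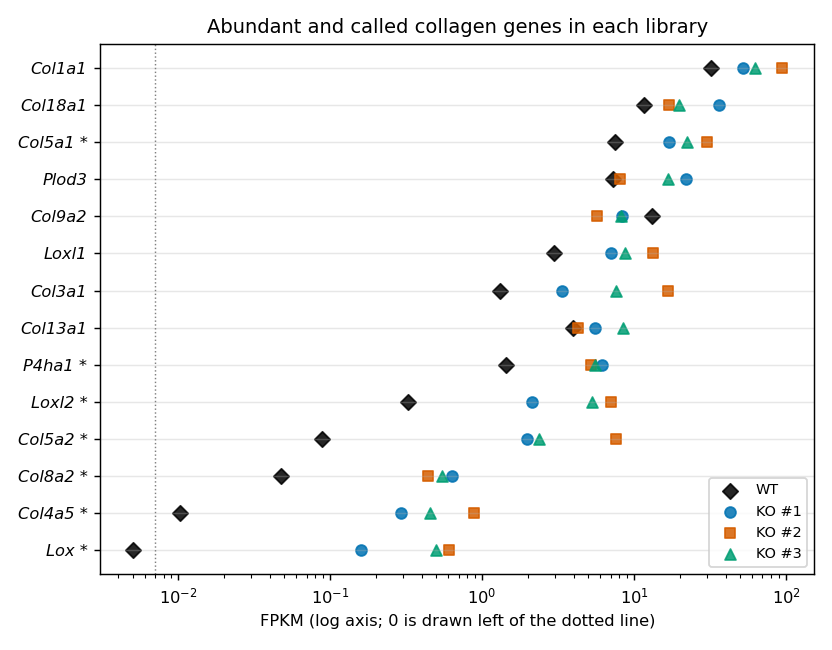
FPKM (log axis) of the 10 members with the highest mean level and of the 7 that rose (asterisks), in WT (diamonds) and in subclones #1 (circles), #2 (squares) and #3 (triangles). WT is the lowest library for each gene shown except *Col9a2*, where at 13.2 FPKM it is the highest.

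Among the 6 basement membrane chains, 3 were tested and 1 rose, beside 8.62% of all genes, while the others moved apart. *Col4a1* and *Col4a2* encode the common type IV chains, which assemble together. *Col4a2* had 121 counts in WT and 181, 639 and 301 in the subclones (log2 fold change 1.38, SE 0.70, adjusted p = 0.211). *Col4a1* had 71 in WT and 51, 34 and 50 in the subclones (-0.89, SE 0.48, adjusted p = 0.238). WT was below every subclone for *Col4a2* and above every subclone for *Col4a1*, and neither passed the test. The FPKM ratio of *Col4a2* to *Col4a1* was 2.27 in WT and 4.73, 25.0 and 8.02 in the subclones, no test of the ratio being made.

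The 2 genes run in opposite directions from 1 shared promoter. In RefSeq GRCr8 their starts enclose 76 bases (chr16:84885521-84885596), shown on the plus strand, on which *Col4a1* runs, with 1 match to GGGCGG in capitals.
Col4a1-Col4a2: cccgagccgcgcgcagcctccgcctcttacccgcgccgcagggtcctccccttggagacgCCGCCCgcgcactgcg

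In the deposited annotation the same pair is 83600 bases apart with 0 genes between, so the deposited models differ at the 5′ ends from these starts. Counts on both genes depend on those models.

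*Col4a5* (chrX:112769645-112983685), a type IV chain of kidney and other basement membranes, had 1 count in WT and 32, 102 and 54 in the subclones. The CPM ratio was 53.3, with a 95% exact counting interval from 9.45 to 2116 that covers counting error only, and the adjusted p was 0.0311. The direction was the same in all 3 subclones, whereas the size of the change rests on a single WT count. Its neighbour *Col4a6* was at 0 in all libraries, as was *Col4a3*, and *Col4a4* had 3 counts or fewer.

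Of the 26 other chains, 12 were tested and 1 rose, a share near the 8.62% of all genes that rose. *Col8a2* (chr5:144308611-144335172) encodes a short-chain collagen known from the cornea, and had 3 counts in WT and 45, 33 and 42 in the subclones. The CPM ratio was 11.3 (95% exact counting interval 3.79 to 55.8, adjusted p = 0.0384), and the subclones were close to each other at 2.30 ± 0.410 CPM (SD, n = 3). Its adjusted p was 0.0537 without #1, 0.145 without #3 and 0.0503 with the gene-length correction, while the 2 subclones other than #3 still had 45 and 33 counts. *Col8a1*, the chain that pairs with it, had 0 counts in WT and 12, 50 and 19 in the subclones. This is at least 7.6-fold higher against a floor of 3 counts per library, and it did not pass (adjusted p = 0.0583). DESeq2 called it (adjusted p = 0.0201), as did edgeR without #1 (0.0284) and without #2 (0.0347).

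*Col18a1*, whose protein carries endostatin at its end, had the second highest FPKM averaged over the 4 libraries, although only in #1 was it second within a library, with 872 counts in WT and 3068, 1524 and 1839 in the subclones. Here #1, not #2, was the highest, and the log2 fold change of 1.08 (SE 0.46) did not pass (adjusted p = 0.154). *Col13a1*, a membrane-spanning collagen, had 158 counts in WT and 248, 203 and 413 in the subclones (0.63, SE 0.47, adjusted p = 0.375). *Col9a2*, a cartilage collagen that coats fibrils, was the only abundant member that was lower. It was 39.4 CPM in WT and 24.9, 17.0 and 25.0 CPM in the subclones (-0.82, SE 0.33, adjusted p = 0.131), with WT above all 3.

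The remaining other chains did not pass. *Col6a2* had a log2 fold change of 2.98 (SE 0.98, adjusted p = 0.0862) and *Col6a1* one of 0.05, which became -0.04 with upper quartile scaling and -0.14 with the gene-length correction or without #2. Both encode chains of type VI collagen, the microfibrillar collagen around cells. A row described as the third type VI chain (AABR07068316.1) had 79 counts in WT and 358, 177 and 326 in the subclones (1.63, SE 0.53, adjusted p = 0.0840). *Col12a1*, which decorates fibrils, ranged from 3.52 to 35.0 CPM over the subclones, around its 11.2 CPM in WT, and its log2 fold change of 0.59 became -0.50 without #3. The log2 fold changes of *Col20a1*, *Col16a1*, *Col17a1* and *Col26a1* were 1.34, 0.22, -0.47 and -0.56, of which that of *Col16a1* became -0.06 with the gene-length correction and -0.03 without #2, and that of *Col17a1* 0.04 without #1. The 14 chains of this group that were not tested had 8 counts or fewer in every library, and 6 of them were at 0.

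Summed over all 42 chains, the level was 76.9 FPKM in WT and 134, 192 and 145 FPKM in #1, #2 and #3. Fibrillar chains made up 55.5% of this in WT and 57.9%, 78.8% and 67.7% in the subclones, whereas the basement membrane chains stayed between 2.20% and 4.38%. *Col1a1* alone held between 38.8% and 49.0% of the sum in each library. The share of the other chains was 41.4% in WT, 39.9% in #1, 16.8% in #2 and 29.4% in #3. These sums describe the libraries and were not tested.

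**Figure D2:**
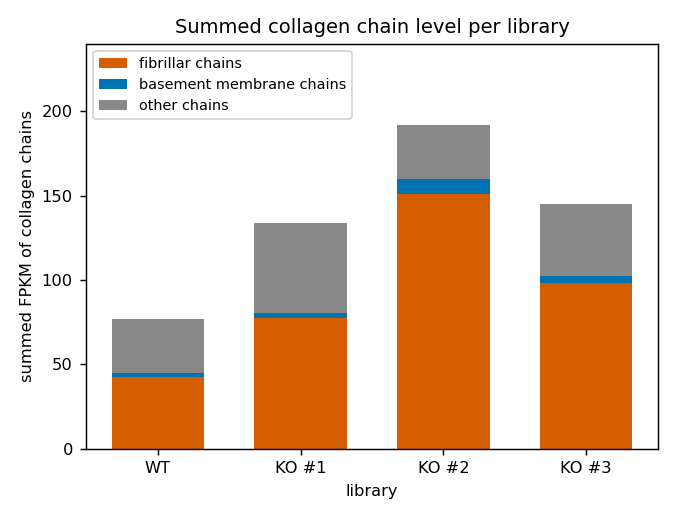
Summed FPKM of the collagen chains in each library, stacked by fibrillar, basement membrane and other chains. The sum runs from 76.9 in WT to 192 in #2, and most of the difference is in the fibrillar chains.

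All 5 lysyl oxidases were tested, and 2 rose, beside 8.62% of all genes. *Lox* (chr18:47500330-47577819), the founding cross-linking enzyme, had 0 counts in WT and 13, 52 and 44 in the subclones. It was at least 10.2-fold higher against the floor of 3 counts (adjusted p = 0.0414). *Loxl2* (chr15:51303909-51365234), which acts on type IV collagen among others, had 11 counts in WT and 81, 286 and 218 in the subclones, a log2 fold change of 3.89 (SE 0.88, adjusted p = 0.0353). In neither did WT overlap the subclones. *Loxl1*, best known from elastic fibres and the most abundant of the 5, had 124 counts in WT and 330, 671 and 450 in the subclones, and did not pass (1.72, SE 0.47, adjusted p = 0.0566). DESeq2 called *Loxl1* (adjusted p = 0.00251). *Loxl4* had 1 count in WT and 3, 17 and 22 in the subclones (CPM ratio 11.9, 95% exact counting interval 2.02 to 481, adjusted p = 0.205), and *Loxl3* had a log2 fold change of 1.42. Without #3, *Lox* had an adjusted p of 0.102, with 13 and 52 counts in the remaining subclones, and *Loxl2* one of 0.0723, with a log2 fold change of 3.81.

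None of the 3 lysyl hydroxylases passed after adjustment in edgeR, DESeq2 or limma, and 0 had an unadjusted p under 0.05 in edgeR. *Plod3*, which also adds sugars to hydroxylysine, had 301 counts in WT and 1017, 398 and 846 in the subclones (1.10, SE 0.55, adjusted p = 0.209), and it passed without #2 (adjusted p = 0.00228). It overlaps *Znhit1* on the other strand, and the library kit did not keep strand, so reads of the 2 cannot be told apart where they overlap. *Plod1* and *Plod2* had log2 fold changes of 1.50 and 1.01. WT was below all subclones for each of the 3, but by little in *Plod3*, at 20.3 against 22.5 CPM in #2.

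Of the 3 prolyl 4-hydroxylase alpha subunits, which give the helix its stability, 1 rose, *P4ha1*, beside 8.62% of all genes. *P4ha2* and *P4ha3* did not pass. *P4ha1* (chr20:28920616-28971966) had 46 counts in WT and 219, 198 and 215 in the subclones. It was 3.10 CPM against 12.1 ± 0.934 CPM (SD, n = 3), a log2 fold change of 1.96 (SE 0.40, adjusted p = 0.0275). The subclones lay closer together than for any other of the 7, and #2 was the lowest. Of the 7, only *P4ha1* was called by limma on log2(FPKM + 1). Without #3 its adjusted p was 0.12, at a log2 fold change of 1.97. *P4ha2* and *P4ha3* had log2 fold changes of 0.56 and 1.08. The beta subunit *P4hb*, outside the rule, went from 628 CPM to 934 ± 22.6 CPM (SD, n = 3) without passing (0.57, SE 0.20, adjusted p = 0.102).

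Across the 34 tested members, the median log2 fold change was 1.36, beside 0.06 over all genes tested. WT was below all 3 subclones in 25 (73.5%), beside 38.1% of all genes, and above all 3 in 4, *Col4a1*, *Col9a2*, *Col11a2* and *Col26a1*, beside 37.6%. The filter raises these figures for the 12 genes under 10 counts in WT, and members near 0 in both groups are not among the 34. The 19 untested members had at most 10 counts in any library, and 9 of them were at 0 throughout.

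**Figure D3:**
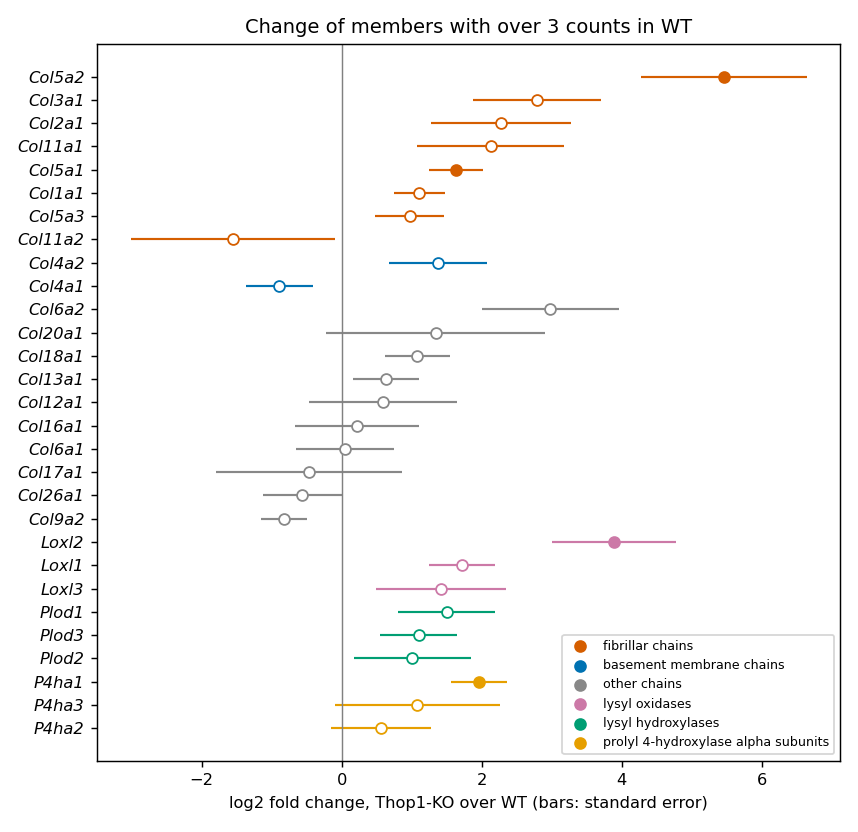
Log2 fold change (*Thop1*-KO over WT, bars are standard errors) of the 29 tested members with over 3 counts in WT, coloured by class; filled points passed the edgeR test. *Col5a2* lies farthest to the right at 5.46 and *Col11a2* farthest to the left at -1.55.

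The subclones were not alike. Subclone #2 was the highest of the 3 in 16 of the 34 tested members (47.1%), beside 39.5% of all genes tested. The median log2 ratio to WT of the fibrillar chains was 1.22 in #1, 2.45 in #2 and 1.85 in #3, and that of the lysyl oxidases was 1.32, 3.01 and 2.84. The other classes did not all follow this order. Subclone #2 was the highest in 2 of the 3 tested basement membrane chains and 6 of the 12 tested other chains. It was the highest in 0 of the 3 lysyl hydroxylases and 0 of the 3 prolyl 4-hydroxylase alpha subunits. In summed CPM, #2 was the lowest subclone for the other chains and both hydroxylase classes. Fibroblast and feeder markers moved in the order of the fibrillar chains and lysyl oxidases, with medians of -0.06, 0.94 and 0.52. Bulk RNA cannot tell a different number of such cells from a different amount of RNA per cell.

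Of the 15 fibroblast and feeder markers listed, 14 were in the table and 12 were tested. None was called by edgeR (1 with unadjusted p under 0.05, beside 34.0% of all genes) or by limma, and DESeq2 called 1. They summed to 327 CPM in WT and 667, 442 and 618 CPM in the subclones, of which *Fbln1* was 158, 519, 188 and 445 CPM. Without *Fbln1* the sums were 169 in WT and 148, 254 and 173 in the subclones, so that #2 was above WT and #1 below it. Of the 12, 10 were highest in #2. WT was below all 3 subclones in 6 of the 12 and above all 3 in 2, beside 38.1% and 37.6% of all genes. *Prrx1* was highest, with 8 counts in WT and 41, 76 and 32 in the subclones (log2 fold change 2.38, SE 0.81, adjusted p = 0.0939). The lowest value was -0.95 for *Acta2* (SE 0.75, adjusted p = 0.4). *Thy1*, a surface marker of fibroblasts, was at 0 in all libraries, and *Fap* had 1 count or fewer. The fibroblast matrix genes *Dcn* and *Lum*, from the list of proteoglycans below, were at 0. The species of the feeder cells is not given in the sources used here, and the part of feeder or fibroblast RNA in the collagen result was not tested.

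**Figure D4:**
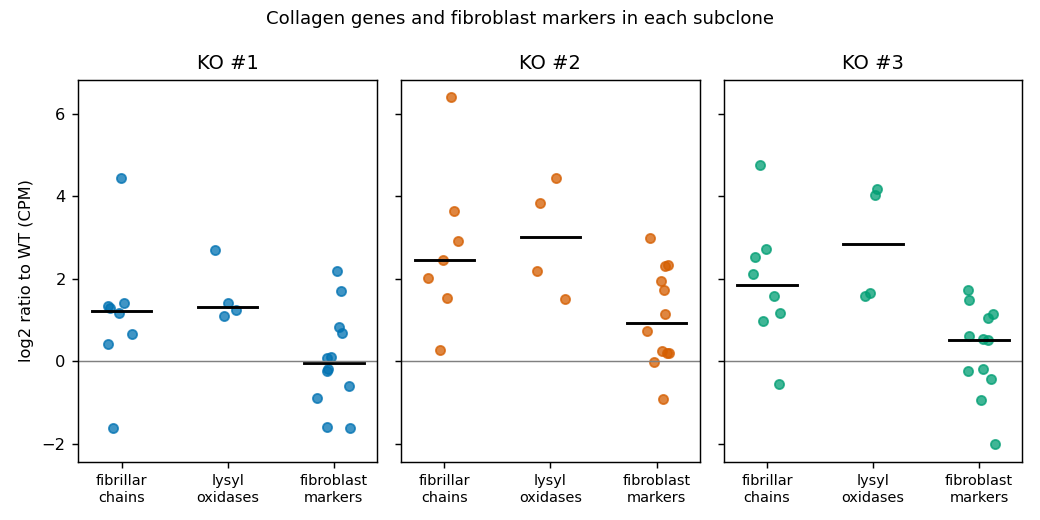
Log2 ratio of CPM to WT in each subclone, for tested fibrillar chains, lysyl oxidases and fibroblast markers (points are genes, lines are medians, genes at 0 in either library are left out). The medians of the fibrillar chains are 1.22, 2.45 and 1.85, and those of the fibroblast markers -0.06, 0.94 and 0.52.

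Endoderm, the other embryonic source of collagen, was looked at in the same way. Of 12 parietal and primitive endoderm markers, 9 were tested and 2 rose, beside 8.62% of all genes. These were the laminin chains *Lamb1* (log2 fold change 1.49, SE 0.27, adjusted p = 0.0200) and *Lamc1* (2.36, SE 0.30, adjusted p = 0.00870). *Lamb1* lost its call without #3 (adjusted p = 0.0872). Of the 9, 6 had an unadjusted p under 0.05 in edgeR, 5 of them higher and 1 lower, beside 34.0% of all genes. WT was below all 3 subclones in 7 and above all 3 in 2, *Gata4* and *Amn*, beside 38.1% and 37.6% of all genes. The median log2 fold change was 1.49, beside 0.06 over all genes tested. The list summed to 946 CPM in WT and 1566, 1646 and 2092 CPM in the subclones, most of it from *Lama1*. The transcription factors of the list had few counts. *Gata4* had 17 in WT and 3, 0 and 3 in the subclones (log2 fold change -3.24, SE 1.27, adjusted p = 0.128). *Gata6* had 9 and 63, 24 and 16, *Sox17* 10 and 34, 37 and 47, *Sox7* 0 and 0, 6 and 1, and *Foxa2* 5 and 0, 8 and 0. WT was below all 3 subclones for *Gata6* and *Sox17* and above all 3 for *Gata4*. Among the other markers, *Amn* had 59 counts in WT and 27, 11 and 43 in the subclones (log2 fold change -1.36, SE 0.72, adjusted p = 0.229). *Dab2* had 0 counts in WT and 8, 22 and 9 in the subclones. This is at least 3.67-fold higher against the floor of 3 counts (adjusted p = 0.0894), the largest rise in the list. The part of endoderm RNA in the collagen result was not tested. All 4 libraries carried the ESC genes *Pou5f1*, between 3889 and 4842 CPM, and *Nanog*, between 334 and 494 CPM. In the list of 12 rows of naive ESC genes, *Dppa3* had more than 1 row and *Zfp42* (*Rex1*) was not found under its symbol. The median log2 fold change of the 12 rows was -0.06, with 5 above 0 and 7 below. Of these genes, *Esrrb* (4.30, SE 0.30, adjusted p = 0.00678) and *Tfcp2l1* (2.89, SE 0.28, adjusted p = 0.00678) rose. *Utf1* fell (-1.51, SE 0.27, adjusted p = 0.0206). Over all genes tested, 8.62% rose and 5.17% fell.

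The genes that carry collagen through the cell showed few calls. Of 11 tested genes of folding and modification, 1 rose, *Colgalt1*, which adds galactose to hydroxylysine (log2 fold change 1.61, SE 0.39, adjusted p = 0.0408). *Creb3l2*, a transcription factor of the secretory pathway, had the largest value in the list at 2.67 without passing, and *Ppib* the lowest at -0.39. Of 10 tested genes of secretion and propeptide trimming, 1 rose, *Sec23a* of the COPII coat (2.18, SE 0.53, adjusted p = 0.0420), and *Tll1* was lowest at -1.67. Neither call held without #3 (adjusted p = 0.112 for *Colgalt1* and 0.0890 for *Sec23a*), with the gene-length correction (0.0630 and 0.0572) or in limma on log2(FPKM + 1) (0.0535 and 0.0801) and log2(FPKM + 0.1) (0.0540 and 0.0598), and that of *Sec23a* did not with upper quartile scaling (0.0508). These shares of 1 in 11 and 1 in 10 are near the 8.62% of all genes that rose.

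Outside the cell, receptors, proteases and partners of collagen were listed too. Their calls stand beside 8.62% of all genes that rose and 5.17% that fell. Of 4 tested receptors, *Mrc2*, which takes up collagen fragments, rose (2.98, SE 0.50, adjusted p = 0.0168; 0.0594 without #3), and *Itga10* was lowest at -0.66. Of 5 tested proteases and inhibitors, *Mmp14*, a membrane-bound collagenase, rose from 35.3 CPM in WT to 133, 167 and 153 CPM (2.10, SE 0.29, adjusted p = 0.00999). The protease inhibitor *Timp3* rose (2.23, SE 0.38, adjusted p = 0.0177) and *Timp1* fell (-1.17, SE 0.27, adjusted p = 0.0380), and each overlaps a synapsin gene on the other strand. The call of *Timp1* was lost with the gene-length correction (adjusted p = 0.1), in limma (0.0551 and 0.0571) and without #3 (0.139). Of 4 tested proteoglycans and partners, *Bgn* (2.81, SE 0.57, adjusted p = 0.0276) and *Pxdn* (3.17, SE 0.83, adjusted p = 0.0498) rose, the first a small proteoglycan that binds collagen and the second an enzyme that links type IV chains, while *Fmod* was lowest at -0.27. *Pxdn* lost its call with upper quartile scaling (adjusted p = 0.0560), library size only (0.0526), the gene-length correction (0.0624), limma (0.130 and 0.0810) and without #3 (0.141). Last, 10 HIF target genes were tested, which like *P4ha1* and *Lox* are known to respond to low oxygen. By edgeR none was called (2 with unadjusted p under 0.05, beside 34.0% of all genes), nor by limma, and DESeq2 called 1. *Vegfa* was highest among them at 1.00 (adjusted p = 0.0578) and *Ankrd37* lowest at -0.94.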

How the data were processed

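Poly(A) RNA of 1 WT library and 3 *Thop1*-KO libraries was measured by RNA-seq. The authors cleaned reads with the FASTX toolkit and deposited raw counts per gene and FPKM values. The submitters' processing notes name HISAT2 2.0.5 and featureCounts 1.5.0-p3, while the genome build is not given in the sources used here. Whether reads were counted by strand is not stated. The authors' FPKM are the same counts scaled by the length of each gene and by a factor of each library.

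The counts were tested in edgeR 4.0.16 under R 4.3.3 (filterByExpr with a minimum count of 10, TMM, quasi-likelihood test, Benjamini-Hochberg adjustment over 15028 genes, threshold 0.05). The SE is the absolute log2 fold change divided by the square root of the F statistic. A WT count of 0 was set to a floor of 3 counts, and for 1 to 3 counts the CPM ratio has a 95% exact (Clopper-Pearson) interval. Floors and intervals cover counting error only. An exact permutation test of 1 against 3 libraries cannot go below 0.25 one-sided, so every p-value rests on the model's spread among the subclones. No pair of libraries agreed within sampling noise. The test was checked on simulated counts. Alternatives were DESeq2 1.42.0, limma 3.58.1 on log2 FPKM, other scalings and filters, a gene-length correction and leaving out each subclone.

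The members and lists were chosen with earlier results of these data known. Full statistics are given for members called and for the 10 with the highest mean FPKM, and from each further list for the genes called. The largest change in each direction of a further list is given at least by its log2 fold change or floor. Gene positions are those of the deposited annotation. Promoters are from RefSeq GRCr8. No genome was used here.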

Additional observations from a re-analysis of the deposited data

How the results depend on the processing

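The 7 members that rose were the same 7 under the 3 other scalings of edgeR, and 5 of them, all but *Col5a1* and *Col8a2*, rose after the gene-length correction. A further threshold of a fold change of at least 2, set on the same fit, could remove none of the 7. Their log2 fold changes were all 1.63 or above. DESeq2 called 10 members, including all 7, and 9 were called with no filter on low counts. The count was 3 with at least 10 counts in every library, 1 in limma on log2(FPKM + 1) and 3 in limma on log2(FPKM + 0.1), and the cause of the lower limma counts was not tested. Leaving out 1 subclone at a time gave 1 to 14 members higher, beside 354 to 3096 of all genes higher. In either direction 457 to 5572 genes were called. With all subclones these numbers were 7, 1295 and 2072. The lowest of each came without #3, and the highest without #2. No member was called lower under any of these settings. For the 14 members given with full statistics, 134 comparisons with the result as reported kept direction and side of the threshold, 19 fell short of it, 11 newly passed it and 0 reversed. Over all 34 tested members, 4 turned direction in at least 1 setting (*Col6a1*, *Col12a1*, *Col16a1* and *Col17a1*), and none was called there. Another scaling moved the share of higher calls among all calls from 62.5% to between 55.6% and 70.0%, and the median of all genes from 0.06 to between -0.04 and 0.13. No paired analysis was possible because there was 1 WT library and no label pairs it with a subclone. Depth limits the members with 0 to 3 WT counts, whose folds are bounds or ratios with wide intervals.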
